A study of Mus musculus with 4 samples.

Results

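FOXL2 peaks that lie at the borders of more than 1 gene at once made up 1087 of the 11438 peaks in the deposited list. A member was a peak on chromosomes 1 to 19 or X, where 11434 peaks lay, whose centre was within 1 kb of a border of at least 2 different protein-coding genes. A border is either end of a gene in the RefSeq annotation of build mm10. The members were 9.51% of the peaks on these chromosomes (exact binomial 95% confidence interval 8.98 to 10.1%) and 15% of the 7243 peaks within 1 kb of any protein-coding border (14.2 to 15.9%). ChIP-seq sequences the DNA that an antibody pulls down with its target protein. There were 2 FOXL2 ChIP samples, with 4 ug of antibody and a different pool of 80 to 100 fetal ovaries each, and 2 input samples without antibody. The ovaries were XX gonads of CD1 mice at E14.5, freed of the mesonephros and frozen. All samples share strain, age and tissue, and whole ovaries were used, so the peaks cannot be assigned to a cell type. Each peak is 300 bp wide and the single list has no score, read count or value per replicate. The depth is therefore unknown, no value below has a replicate error, and intervals cover counting alone, with peaks or pairs treated as independent. No test over samples could be made.

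FOXL2 belongs to the forkhead family of DNA-binding proteins. In the ovary it marks pregranulosa and granulosa cells, the somatic cells that surround oocytes, and it is known for keeping these cells from taking on a testis fate. Mammalian genes often lie head to head, with their transcription start sites close together on opposite strands. Such a divergent pair shares 1 promoter region, commonly rich in CpG dinucleotides, and many genes with basic roles in every cell, such as DNA repair and mitochondrial function, are arranged this way. Other neighbours lie in tandem, with the end of one before the start of the next, or tail to tail.

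The sequence between the gene starts is shown for 6 divergent pairs, since this short stretch is all that separates genes which share a peak. The first 4 pairs hold a shared FOXL2 peak and the last 2 have no peak within 1 kb of either gene. The sequences are from the RefSeq promoter table of GRCm38.p6, plus strand, at chr9:53536829-53536888, chr11:101551956-101552106, chr11:69580251-69580347, chr7:28741822-28741956, chr17:34187331-34187555 and chr4:116807602-116807635. Capitals mark CCAAT boxes (CCAAT or, on the other strand, ATTGG) and SP/KLF motifs (GGGCGG or CCGCCC).
Atm/Npat: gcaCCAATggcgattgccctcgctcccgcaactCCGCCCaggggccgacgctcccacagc
Brca1/Nbr1: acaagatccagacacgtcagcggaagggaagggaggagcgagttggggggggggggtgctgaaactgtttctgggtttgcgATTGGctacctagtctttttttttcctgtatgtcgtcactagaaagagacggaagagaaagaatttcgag
Wrap53/Trp53: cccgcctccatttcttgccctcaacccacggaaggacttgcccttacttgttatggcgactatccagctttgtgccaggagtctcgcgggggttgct
Mrps12/Sars2: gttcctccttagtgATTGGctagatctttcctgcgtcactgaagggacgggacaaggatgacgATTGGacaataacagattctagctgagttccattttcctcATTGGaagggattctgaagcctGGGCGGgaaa
Psmb9/Tap1: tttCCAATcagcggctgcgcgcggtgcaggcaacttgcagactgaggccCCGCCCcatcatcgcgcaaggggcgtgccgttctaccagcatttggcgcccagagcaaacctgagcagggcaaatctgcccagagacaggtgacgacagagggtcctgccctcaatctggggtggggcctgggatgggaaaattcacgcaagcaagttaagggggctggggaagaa
Toe1/Mutyh: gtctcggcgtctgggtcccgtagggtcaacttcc
The stretch is 60 bases in Atm/Npat and 151 in Brca1/Nbr1, with 6 and 7 CpG dinucleotides. It is 225 bases with 12 CpG in Psmb9/Tap1, which has no peak. The Mrps12/Sars2 stretch holds 3 CCAAT boxes and 1 SP/KLF motif. The shared peak reaches into the stretch shown in Atm/Npat and Mrps12/Sars2, but lies wholly outside it in Brca1/Nbr1 and Wrap53/Trp53.

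The first question was which kinds of gene pair share a peak. Shared peaks lay at pairs of gene starts. The pair of a member was taken as its 2 genes with the nearest borders, and 1067 members had exactly 2 genes within reach while 20 had 3. A strand, and so which border is the start, was available for both genes of 847 members. Of these, 702 (82.9%, interval 80.2 to 85.4%) lay at start and start, 141 (16.6%, 14.2 to 19.3%) at the start of one gene and the end of another, and 4 (0.472%, 0.129 to 1.2%) at 2 ends. The genes were on opposite strands in 680 of the 702 start-start members. In 16 both genes are listed from the same base, as for Taf9 and Ak6, which encode a subunit of the general transcription factor TFIID and an adenylate kinase.

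These counts depend on how many pairs of each kind exist, so all 4809 pairs of protein-coding genes with borders at most 2 kb apart were set beside them. Of those pairs 1055 (21.9%) held a shared peak. The share was 63.4% of 1048 start-start pairs (interval 60.4 to 66.3%), 14.9% of 975 start-end pairs (12.7 to 17.3%) and 0.995% of 1105 end-end pairs (0.498 to 1.77%). Start-start and end-end pairs are thus about equally common in the annotation, while 664 start-start pairs and 11 end-end pairs held a shared peak. Strand was missing for a gene of the other 1681 pairs, and 14% of those held one. The same order held within classes of spacing up to 1000 bp for genes that do not overlap. From 1000 to 2000 bp, 1 of 64 start-start, 3 of 382 start-end and 0 of 249 end-end pairs held one, and the intervals overlapped. With under 200 bp between the borders, the share was 74.5% of 420 start-start pairs, 27.4% of 106 start-end pairs and 1.97% of 152 end-end pairs, and the 3 intervals did not overlap. A pair was classed here by its own nearest borders, which need not be the borders nearest to the peak. The peak's nearest borders were the pair's own in 642 start-start pairs (61.3%), 133 start-end pairs (13.6%) and 4 end-end pairs (0.362%, 0.0987 to 0.924%).

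**Figure D1:**
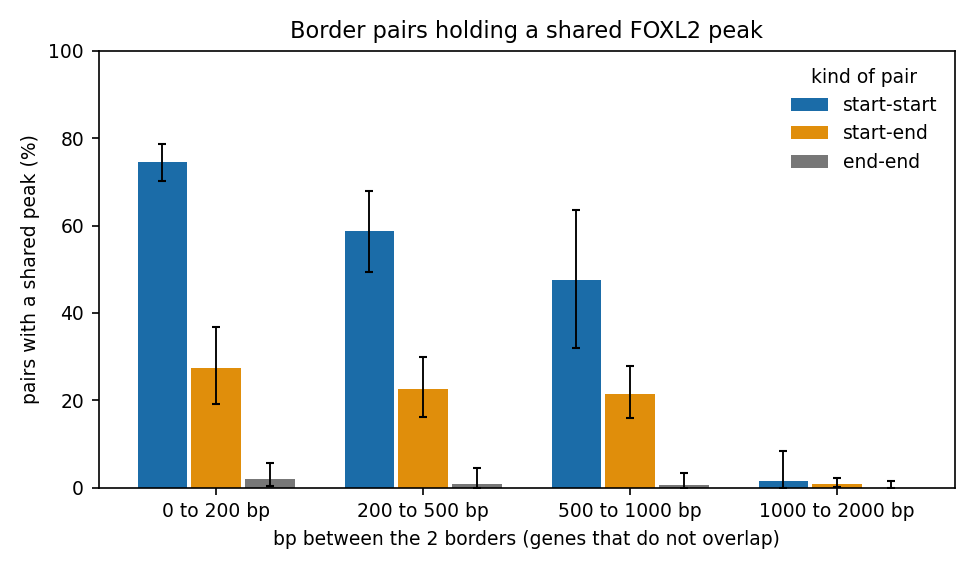
Share of border pairs that hold a shared FOXL2 peak (y axis, percent) by bp between the borders (x axis), for genes that do not overlap. Bars stand for start-start, start-end and end-end pairs and error bars for exact binomial 95% intervals. Start-start pairs reach 74.5% under 200 bp, against 1.97% for end-end pairs. All kinds fall below 2% from 1000 to 2000 bp, where only a centre in the gap can be within 1 kb of both genes.

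Borders without a close neighbour were set beside the pairs. A lone border had no border of another protein-coding gene within 2 kb and belonged to a gene over 2 kb long. The start-start pairs under 200 bp apart held a shared peak in 74.5% of cases (interval 70.1 to 78.6%), against 35.1% of 12068 lone starts with a peak within 1 kb (34.2 to 36.0%). End-end pairs held a shared peak in 0.995% of cases, or 0.362% where the ends were the borders nearest to it, against 0.472% of 11852 lone ends with a peak within 1 kb (0.357 to 0.613%). These intervals overlap, and the direction turns with the definition. Per length of sequence, peaks numbered 187 per Mb (Poisson 95% interval 176 to 198) in the 5.82 Mb within 1 kb of borders of 2 or more genes. They numbered 84.9 per Mb (82.8 to 87.0) in the 72.5 Mb near the borders of exactly 1 gene and 1.66 per Mb elsewhere. The first density was 2.2 times the second. A window with 2 starts holds more starts than a window with 1, and this was not corrected for.

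The borders that share a peak lay close together. Over all members the median number of bp between the 2 borders was 148 (quartiles 58.0 and 357). It was 94.0 bp for start-start genes that do not overlap (423 members, quartiles 44.5 and 179) and 256 bp for start-start genes that do (260 members, 88.2 and 510). For start-end genes that do not overlap it was 382 bp (110 members, 192 and 636). In 3 of the 110 the genes are on opposite strands and the spacing runs across 1 of them. Spacings under 200 bp were found in 326 of the 423 non-overlapping start-start members and in 30 of the 110 start-end members. Close spacing is also common in the annotation itself. With or without a peak, 420 of 645 non-overlapping start-start pairs and 106 of 839 start-end pairs were under 200 bp apart. The rule allows spacings up to 2000 bp, and the largest found was 1545 bp. Members with wide spacing are limited by the rule itself, because a peak inside one gene must still be within 1 kb of the other.

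**Figure D2:**
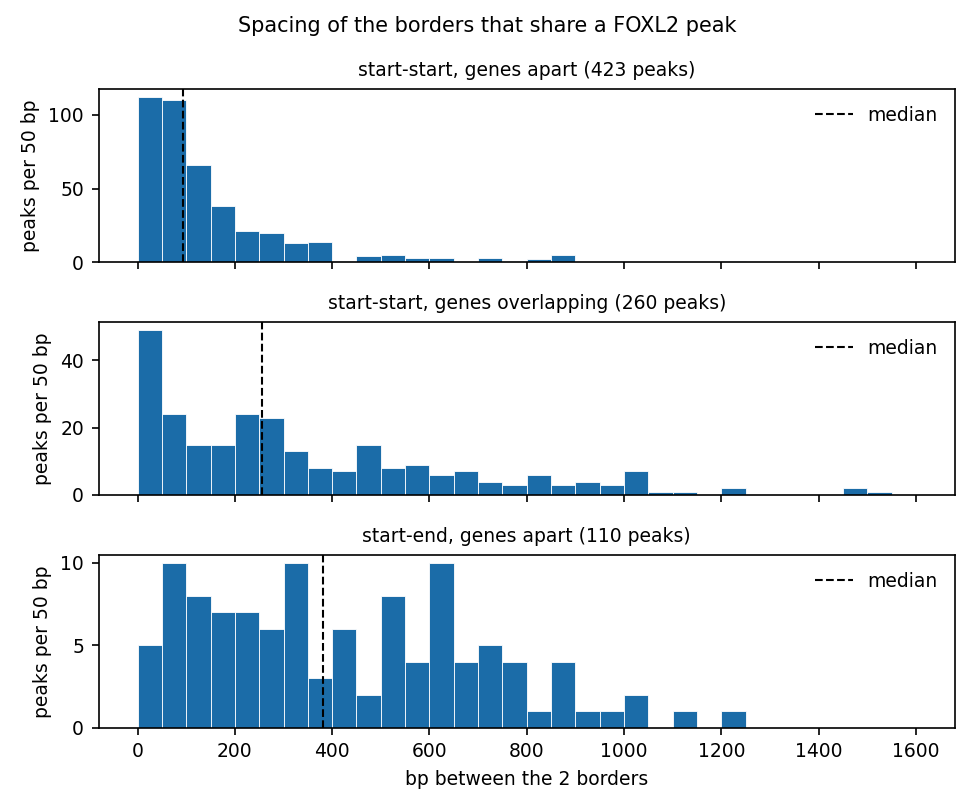
Numbers of shared FOXL2 peaks (y axis) in 50 bp classes of the bp between the 2 borders (x axis), for the 3 most frequent arrangements of genes. Dashed lines are medians, at 94.0, 256 and 382 bp from top to bottom, and start-start genes that do not overlap crowd toward 0.

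The narrowest spacings, with no base between the borders, included Capza1/St7l, Smpd2/Ppil6, Ears2/Ubfd1 and Tcta/Rhoa. Rhoa encodes a small GTPase that controls the actin cytoskeleton. The widest spacing of the borders of non-overlapping genes was 1214 bp, from the start of Tent4a to the far end of A930018O16Rik, so it runs across the second gene. It was 1212 bp between the starts of the histone genes H3c3 and H2bc3. At the limit of the rule, the farther border was 1000 bp away for Nfkbiz/Nxpe3, 996 bp for Exoc3l/E2f4 and 994 bp for Nhlrc4/Pigq. Just outside it lay peaks at Zic4/Zic1 (1001 bp to the second gene), Slc9a3r1/Rab37 (1003 bp) and Gm46382/Cep170b (1005 bp).

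Between divergent starts the peak centre was seldom in the middle. Of the 423 non-overlapping start-start members, 384 (90.8%, interval 87.6 to 93.4%) had their centre inside 1 of the genes and 39 (9.22%, 6.64 to 12.4%) in the gap. The gap is short, and any centre outside it falls in one gene or the other, so place was also counted per kb of sequence. Around the 420 divergent pairs under 200 bp apart, with or without a peak, the gap held 14 centres in 32.3 kb, or 0.433 per kb (Poisson interval 0.237 to 0.727). The stretch 100 to 200 bp inside either gene held 103 centres in 84.0 kb, or 1.23 per kb (1.0 to 1.49). The density was 0.81 per kb in the first 100 bp inside and 0.226 per kb from 400 to 500 bp inside. At lone starts the fullest stretch was the same, 100 to 200 bp inside the gene, with 0.81 per kb (0.76 to 0.863), against 0.179 per kb in the 100 bp outside.

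**Figure D3:**
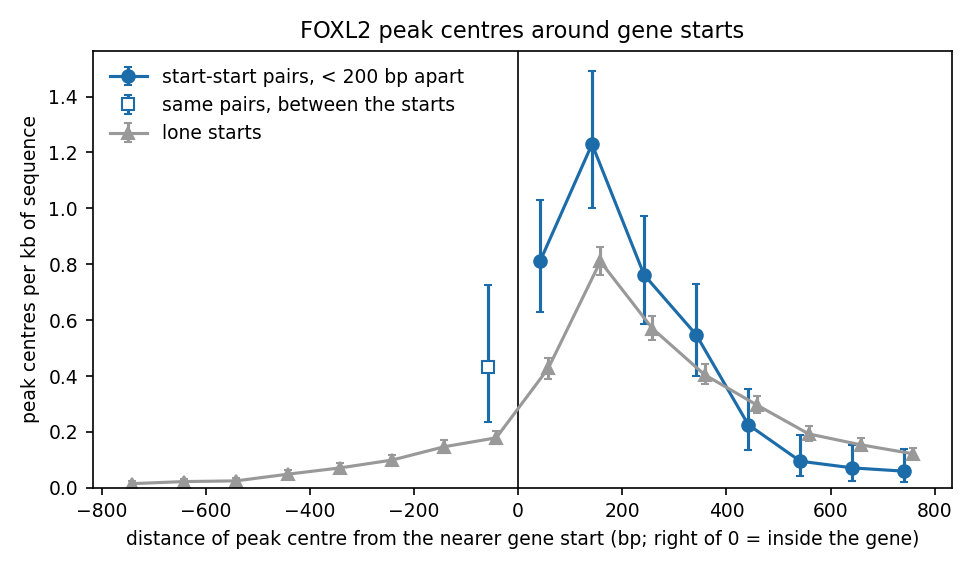
FOXL2 peak centres per kb of sequence (y axis) by distance from the nearer gene start in bp (x axis, positive inside the gene). Circles are start-start pairs under 200 bp apart, the open square is the sequence between their starts, triangles are lone starts, and bars are Poisson 95% intervals. Both profiles peak 100 to 200 bp inside the gene, at 1.23 per kb for pairs and 0.81 per kb for lone starts, and the sequence between paired starts lies at 0.433 per kb.

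The centres inside a divergent gene lay a median of 192 bp past its start (384 members, quartiles 115 and 301) and 306 bp upstream of the other start. The median was 236 bp inside the gene for peaks at lone starts. Which gene held the centre was close to even. It was the longer gene in 183 of 384 cases (47.7%, interval 42.6 to 52.8%), the gene with more listed transcripts in 159 of 335 cases (47.5%, 42.0 to 53.0%) and the gene at the lower coordinate in 190 of 384 cases (49.5%, 44.4 to 54.6%). Pairs with 1 shared peak in each gene are among these cases and split evenly by construction. Where start-start genes overlap, 114 of 260 centres (43.8%) lay inside both genes and 145 inside 1 of them. Alternative starts affect these distances. For 264 of the 702 start-start members a start listed for another transcript of the pair was nearer than the gene border, and the median distance to the nearest listed start was 144 bp, against 172 bp to the nearest border. Listed starts of both genes lay within 1 kb of the centre in 610 of the 702 (86.9%), so a start border is not always near a listed start.

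Some peaks did lie near the midpoint of a gap. Among gaps of 100 bp or more, the nearest centre was 13.0 bp from the midpoint between Nfkbib, an inhibitor of NF-kappa-B, and Sirt2, a protein deacetylase, which are 107 bp apart. It was 15 bp from it between Ppox and Usp21, 755 bp apart and in start-end order, and 15.5 bp between Cramp1l and Ift140, 242 bp apart. Ppox encodes an enzyme of heme synthesis and Ift140 a protein of transport in cilia. The next were Tbc1d17/Akt1s1 (16.5 bp), Pip4k2b/Cwc25 (18 bp), Aamdc/Rsf1 (25.5 bp), Septin10/Sowahc (26.0 bp), Maz/Kif22 (28.5 bp), Nckap1l/Pde1b (30.0 bp) and Eftud2/Ccdc103 (32.0 bp).

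In tandem pairs the peak followed the start. Of the 107 start-end members with non-overlapping genes on the same strand, 98 (91.6%, interval 84.6 to 96.1%) were nearer to the start of the downstream gene than to the end of the upstream gene. The centre was inside the downstream gene in 91, at a median of 203 bp past its start, in the gap in 10 and inside the upstream gene in 6. Senp3 shows this arrangement, with a centre 11 bp inside Senp3, a SUMO protease gene, and 504 bp beyond the border of Tnfsf13. The 4 end-end members were Phf10/1600012H06Rik, Duox1/Shf, Hrc/Ppfia3 and Inppl1/Phox2a, which are named here because they are few. The nearer end lay 347, 36, 369 and 865 bp from these centres, in that order.

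A pair held 2 shared peaks in 72 of the 1055 pairs with any, and no pair held more. Of these 72, 57 were start-start pairs. In 29 of the 35 start-start pairs with genes apart, 1 centre lay inside each gene, and the 2 centres of these 35 pairs were a median of 766 bp apart (range 507 to 1328 bp). Tcta/Rhoa had centres 380 bp inside Tcta and 385 bp inside Rhoa. Dbf4/Slc25a40 had centres 186 bp inside Dbf4, the activator of a replication kinase, and 316 bp inside Slc25a40, a mitochondrial carrier gene. Ikbip/Apaf1 had centres 428 bp inside Ikbip and 147 bp inside Apaf1, which builds the apoptosome. Baz2b/Marchf7, Arfip2/Timm10b, Crat/Ptpa, Ccnk/Setd3 and Anks1/Taf11 also had 1 centre in each gene. In Map3k10/Zfp607b both centres lay inside Map3k10, 637 and 16 bp from its border. At Alg3/Eef1akmt4, 839 bp apart, 1 centre lay 73 bp inside Alg3 and the other in the gap, 91 bp from Eef1akmt4.

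Of the 20 members with 3 genes, the 10 with the shortest summed distances were the peaks at Eef1akmt4, Eef1akmt4-ece2 and Alg3, at Gm20604, Gon7 and Ubr7, at Taf9, Ak6 and Rad17, at Cmc4, Mtcp1 and Brcc3, and at Smim27, Topors and Ndufb6. The others were at Gm45935, Setdb2 and Cab39l, at Atf5, Il4i1b and Nup62, at Psme3ip1, Rspry1 and LOC115486880, at Ampd2, Gnat2 and Gm12500, and at Senp3, Tnfsf13 and Tnfsfm13. In Taf9, Ak6 and Rad17 the first 2 genes are listed from the same base, 118 bp from the centre. Rad17 encodes a protein of the DNA damage checkpoint.

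A list of 23 gene pairs long known as close or divergent neighbours in mammals was then followed pair by pair. Of these, 21 had borders at most 2 kb apart, and 13 of the 21 held a shared peak. Over all pairs that close it was 1055 of 4809, and among start-start pairs 664 of 1048 (63.4%), which is near the share of the list. At Atm/Npat, genes of the kinase that signals DNA double-strand breaks and of an activator of histone transcription, the peak at chr9:53536558-53536857 was centred 121 bp inside Atm and 182 bp outside Npat. At Prkdc/Mcm4, genes of the catalytic subunit of DNA-dependent protein kinase and of a subunit of the replicative helicase, the centre was 215 bp inside Prkdc and 259 bp outside Mcm4. At Sars2/Mrps12, genes of a mitochondrial tRNA synthetase and a mitochondrial ribosomal protein, it was 116 bp inside Sars2.

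At Brca1/Nbr1 the centre was 848 bp outside Brca1, the repair gene, and 696 bp inside Nbr1, which encodes an autophagy receptor. It was 149 bp past another listed Nbr1 start. At Trp53/Wrap53 the centre was 833 bp inside Trp53, which encodes p53, and 931 bp outside Wrap53. At Col4a1/Col4a2, the divergent genes of the main basement membrane collagen, it was 125 bp inside Col4a1 and 41 bp outside Col4a2. At Ppat/Paics, genes of purine synthesis, it was 79 and 197 bp inside the genes. A single peak was also shared at Hars/Hars2. Hspd1/Hspe1, the genes of the mitochondrial chaperonin and its partner, held 2 peaks, centred 534 bp inside Hspd1 and 266 bp inside Hspe1. Gart/Son held 2, centred 148 bp outside Gart and 110 bp inside Son, and Cdc45/Ufd1 held 2, centred 238 bp inside Cdc45 and 688 bp inside Ufd1.

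The 8 close pairs without a shared peak were Tbp/Psmb1, Surf1/Surf2, Col4a3/Col4a4, Col4a5/Col4a6, Tap1/Psmb9, Mutyh/Toe1, Nthl1/Tsc2 and Chek2/Hscb. Tbp and Psmb1, 1611 bp apart, each had a peak of its own within 1 kb. The other 7 pairs had no peak within 1 kb of any of their borders. Col4a3, Col4a4, Col4a5 and Col4a6 encode collagen chains of specialised basement membranes, and Tap1 and Psmb9 serve antigen presentation. The 2 pairs not close in this annotation were Acat2/Tcp1, 17974 bp apart, and Bcs1l/Zfand2b, whose genes are not neighbours here. Bcs1l instead shared a peak with Zfp142, 155 bp from it.

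Over all genes, 2028 of 21627 protein-coding genes (9.38%) had a shared peak, and 7719 (35.7%) had any peak within 1 kb of a border. A shared peak needs a close neighbour. Another border lay within 2 kb for 7047 genes (32.6%), and 28.8% of these had a shared peak. Counts of lists and families below stand beside these shares and carry no test. Genes of mitochondrial ribosomal proteins (30 of 78, 38.5%, interval 27.7 to 50.2%), DNA repair (21 of 60, 35.0%, 23.1 to 48.4%), Integrator subunits (5 of 15, 33.3%, 11.8 to 61.6%) and RNA polymerase II with its general factors (12 of 39, 30.8%, 17.0 to 47.6%) had shared peaks most often. Complex I subunits and assembly factors (15 of 49, 30.6%) and aminoacyl-tRNA synthetases (11 of 37, 29.7%) followed. All of these intervals lay above 9.38%. Close neighbours were also common in these groups, from 51.4% of synthetase genes to 70.0% of repair genes. Among genes with a close neighbour, the groups ranged from 44.1% of 34 complex I genes to 62.5% of 8 Integrator genes with a shared peak. Over all genes with a close neighbour it was 28.8%. The kinds of pair were not held equal here, and whether arrangement accounts for the high shares was not tested.

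**Figure D4:**
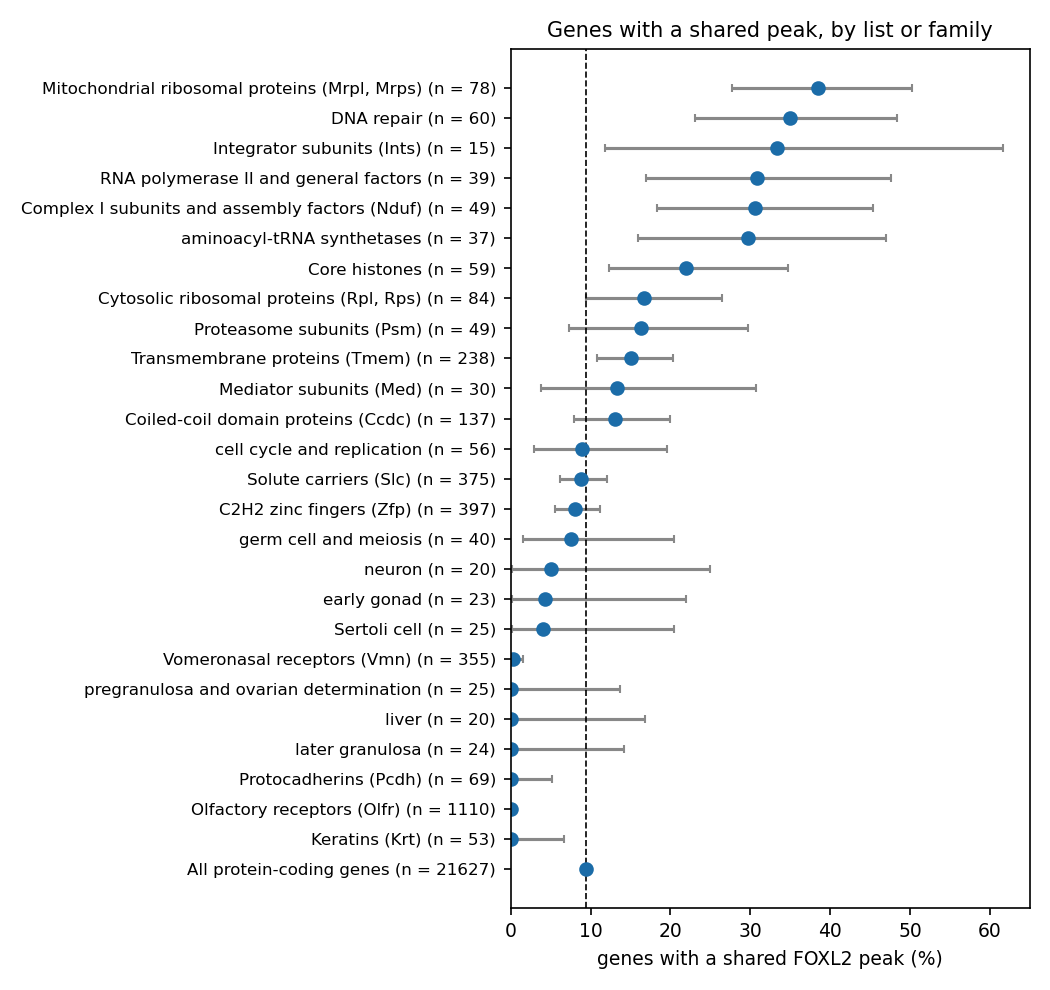
Share of genes with a shared FOXL2 peak (x axis, percent) for each list or symbol family (y axis, number of genes in brackets). Points are shares, bars exact binomial 95% intervals, and the dashed line the 9.38% of all protein-coding genes. Mitochondrial ribosomal protein genes stand highest at 38.5%, and pregranulosa genes stand at 0.

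None of the 25 genes of pregranulosa cells and ovarian determination had a shared peak (upper limit of the interval 13.7%). None of them has another protein-coding border within 2 kb, so none could be a member, while 11 of the 25 had a peak of their own at a border. Of 25 Sertoli genes, 4 had a close neighbour and 1 a shared peak. This was Dhh, the desert hedgehog ligand of the testis, where the centre was 390 bp beyond the end of Dhh and 272 bp inside Rhebl1. Of 23 early gonad genes, 4 had a close neighbour and 1 a shared peak, at Mapk14, a stress-activated kinase of the sex determination pathway. There the centre was 190 bp upstream of Mapk14 and 121 bp inside Slc26a8. No gene of the later granulosa list (0 of 24) had one. Inha, Lhcgr, Npr2 and Star have close neighbours, but no peak within 1 kb of a border. Inha is in a start-start pair, Lhcgr and Npr2 are in end-end pairs, and the kind is unknown for Star. Star, which brings cholesterol to the steroid-producing enzymes, lies 17 bp from Ash2l.

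Of 40 germ cell and meiosis genes, 16 had a close neighbour and 3 a shared peak. At Tex14, a gene of germ cell bridges, and Rad51c, a recombination gene, which are 58 bp apart, the centre was 45 bp inside Tex14 and 104 bp upstream of Rad51c. At Smc1b, the meiotic cohesin gene, it was 202 bp inside the gene and 305 bp upstream of Ribc2. Of the 13 with a close neighbour but no shared peak, Rec8 ends 4 bp from the end of Ipo4 and Msh5 lies 47 bp from Sapcd1. Rec8 and Msh5 were chosen after their values were seen.

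Among repair genes the smallest summed distances were at Lig4/Abhd13 (centre 93 bp outside Lig4, a ligase of end joining, and 56 bp inside Abhd13), Rad51c/Tex14, Rlbp1/Fanci (119 bp outside Fanci), Fkbp3/Fancm (178 bp outside Fancm), Tmem258/Fen1 (51 bp inside Fen1, the flap endonuclease) and Emc3/Fancd2 (110 bp outside Fancd2). Fanci, Fancm and Fancd2 belong to the Fanconi anemia pathway, which repairs crosslinks between DNA strands. Of 22 repair genes in a start-start pair, 14 had a shared peak, near the share over all genes (1311 of 2059). Fancb, Mutyh, Nthl1, Palb2, Pms2, Xrcc1 and Xrcc3 also form start-start pairs, 3 to 272 bp from their partners, and had no peak within 1 kb of a border. These 7 were chosen after their values were seen.

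The 5 cell cycle genes with a shared peak, of 56, were Cdc45, Mcm4, Aurka, Pcna and Mcm7. Pcna, the sliding clamp of replication, had a centre 397 bp inside the gene and 555 bp upstream of Cds2. Aurka, a mitotic kinase gene, was 168 bp from a centre inside Cstf1. The share of this list was 8.93%, against 9.38% of all genes, although 64.3% of its genes had a peak at a border. Synthetase genes with the closest members included Wars (87 bp outside, with Wdr25), Sars2, Hars, Hars2 and Yars (315 bp outside, with S100pbp). Of the general transcription genes the closest were Gtf2h5 (75 bp inside, with Serac1), Taf9, Gtf2e1 (168 bp outside, with Rabl3), Gtf2h1 (150 bp outside, with Hps5), Polr2h (187 bp outside, with Clcn2) and Polr2l (198 bp outside, with Tspan4).

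Other families were collected by their shared symbols. Cytosolic ribosomal protein genes had a border peak in 73.8% of cases, close to the 74.4% of mitochondrial ones, but a shared peak in 14 of 84 (16.7%, interval 9.42 to 26.4%), against 30 of 78. Their arrangement differed too, since 42 of 84 cytosolic and 50 of 78 mitochondrial ones have a close neighbour. Among genes in start-start pairs, 8 of 10 cytosolic and 24 of 29 mitochondrial ones had a shared peak. The Integrator genes were Ints5, Ints7, Ints9, Ints12 and Ints13, named because they are few. Proteasome genes had a shared peak in 8 of 49 cases (16.3%, interval 7.32 to 29.7%) and Mediator genes in 4 of 30 (13.3%, 3.76 to 30.7%). Genes of transmembrane proteins named Tmem had one in 36 of 238 (15.1%, 10.8 to 20.3%). Those of coiled-coil proteins named Ccdc had one in 18 of 137 (13.1%, lower limit 7.98%). Of these intervals, only that of Tmem genes lay above the 9.38% of all genes. Among genes with a close neighbour, 8 of 25 proteasome and 36 of 105 Tmem genes (34.3%) stood above the 28.8% over all genes. Mediator (4 of 21) and Ccdc genes (18 of 71, 25.4%) stood below it. Zinc finger genes (8.06% of 397) and solute carriers (8.8% of 375) were near the share of all genes. Core histone genes, which lie in clusters of divergent pairs, had one in 13 of 59 cases (22.0%). Of these genes 81.4% have a close neighbour, and 27.1% of those had a shared peak, against 28.8% over all genes. Among histone genes in start-start pairs it was 6 of 26, against 1311 of 2059 over all genes. At H2ac11/H2bc11, 248 bp apart, the centre was in the gap, 28 bp from H2ac11, and at H2ac13/H2bc13, 228 bp apart, 33 bp from H2ac13. Reads from such near-identical genes may not be placed with certainty. These 2 pairs were chosen after their values were seen.

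Tissue-restricted families were almost without members. Shared peaks numbered 0 of 1110 olfactory receptor genes (upper limit 0.332%), 0 of 69 protocadherin genes, 0 of 53 keratin genes and 0 of 20 liver genes. Of the protocadherin genes 62.3% have a close neighbour, against 1.71% of olfactory receptor genes and 15.1% of keratin genes. No protocadherin or keratin gene was in a start-start pair of known strand, against 4 olfactory receptor genes. Genes without a strand, as on chromosome 18, could not be classed, so these counts do not show that a family lacks such pairs. Vmn1r4, the 1 member among 355 vomeronasal receptor genes, was 181 bp outside a centre that lay inside Nt5c3. Of 20 neuron genes 1 was a member, Nefh, a neurofilament gene, at a peak also inside Ap1b1.

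Base composition was compared between promoters of paired and lone genes. The promoter table gave 250 bases before and 50 after a start, and the window nearest to the gene's border was used. The median number of CpG dinucleotides per window was 25 for 1273 start-start genes with a shared peak and 17.0 for 734 without. It was 23.0 for lone starts with a peak, 7.0 for lone starts without and 14 for all 17273 protein-coding promoters. The median GC content was 63.3% in start-start genes with a shared peak and 63.0% in lone starts with a peak, against 58.3% and 53.0% in those without. Occupancy was also compared within classes of CpG. The window of a paired gene often holds its partner's start as well. With 0 to 4 CpG a peak lay within 1 kb of the start of 29.2% of 113 genes of start-start pairs (interval 21.0 to 38.5%), against 3.19% of 3100 lone starts (2.6 to 3.87%). With 15 to 19 CpG the shares were 60.1% of paired and 50.9% of lone starts, and with 30 or more 81.9% (78.3 to 85.1%) and 66.4% (64.2 to 68.5%). Paired starts stood above lone starts in all 7 classes. A peak within 1 kb of a paired start may lie at the partner's start, which a lone start does not have. This was not corrected for, so the comparison does not show a higher share per start. A shared peak counts for both genes of its pair, so the genes are not independent and the intervals of paired starts are too narrow. This comparison was added after the data were seen.

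**Figure D5:**
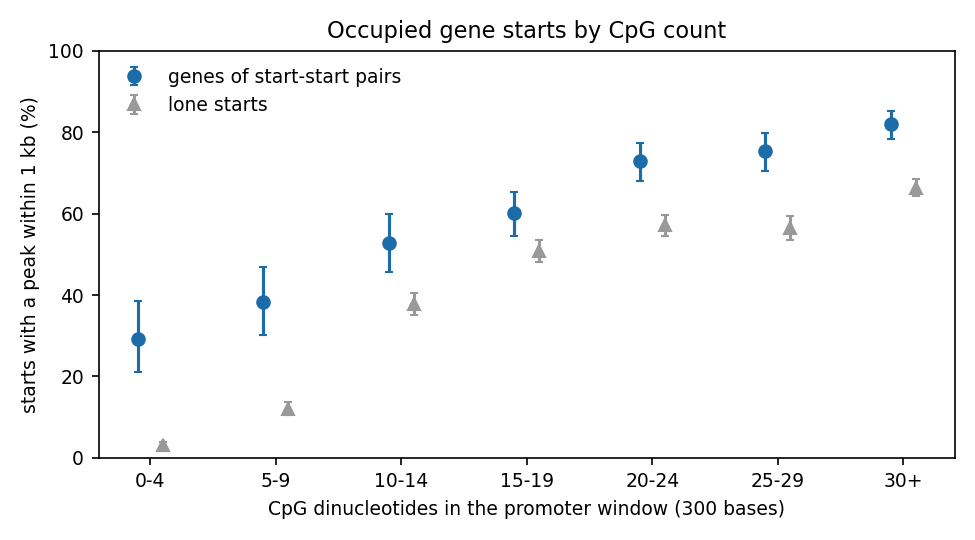
Share of gene starts with a FOXL2 peak within 1 kb (y axis, percent) by the number of CpG dinucleotides in the promoter window of 300 bases (x axis). Circles are genes of start-start pairs, triangles are lone starts, and bars are exact binomial 95% intervals, too narrow for paired genes, where 1 peak can count for both. Shares are highest in the class of 30 or more CpG in both groups, at 81.9% for paired and 66.4% for lone starts.

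Motifs were searched in the same windows by exact letters on both strands. The forkhead motif TGTTTAC was in 1.34% of windows of start-start genes with a shared peak (interval 0.78 to 2.13%), in 1.91% of start-start genes without, in 2.9% of lone starts with a peak and in 2.96% of all promoters. Its shorter form TGTTTA, which includes it, was in 5.66%, 7.49%, 8.45% and 11.5% of these groups, in the same order. The ETS motif CCGGAAG was in 28.8% of start-start genes with a shared peak (26.3 to 31.3%), 19.3% of those without, 17.5% of lone starts with a peak and 12.1% of all promoters. The SP/KLF motif GGGCGG was in 66.7%, 56.8%, 72.6% and 46.9%, and the CCAAT box in 38.0%, 45.8%, 38.3% and 39.6%. The short NRF1 motif TGCGCA was in 17.5%, 17.4%, 16.1% and 10.1%, the E-box CACGTG in 11.9%, 8.58%, 11.2% and 8.01%, the TATA motif TATAAA in 4.08%, 8.72%, 6.11% and 13.4%, and the GATA motif AGATAA in 5.18%, 7.22%, 5.1% and 9.99%. The YY1 motif AAGATGGC was in 8.17%, 4.63%, 5.05% and 3.23%, the cyclic AMP response element TGACGTCA in 3.77%, 2.86%, 3.54% and 2.36%, the longer palindromic NRF1 motif, which includes the short one, in 2.44%, 2.32%, 2.74% and 1.35%, and the steroidogenic factor motif CAAGGTCA in 0.314%, 1.09%, 0.85% and 1.26%. In lone starts without a peak the share was 2.95% for TGTTTAC, 12.1% for TGTTTA, 7.1% for CCGGAAG, 36.2% for GGGCGG and 38.8% for the CCAAT box. The median GC content of the 4 groups above was 63.3%, 58.3%, 63.0% and 56.3%, in the same order. Motif shares were not corrected for it, so a tie of any motif to shared peaks was not tested. The windows of both genes of a divergent pair often overlap, so their matches are not independent.

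These windows cover little of the peaks, a median of 82.0 of the 300 bases of a shared peak. All 300 bases could be read for 70 shared peaks and for 96 peaks at a single gene. Every base read lies between 250 before and 50 after a listed start, which at a divergent pair can be inside the partner gene. These peaks were selected by this cover and were not matched to all promoters for GC content. Among these, TGTTTAC was in 2 of 70 shared peaks (2.86%, interval 0.348 to 9.94%) and in 5 of 96 peaks at a single gene (5.21%, 1.71 to 11.7%), against 2.96% of all promoters of the same length. CCGGAAG was in 33 of 70 (47.1%, 35.1 to 59.4%) and 26 of 96 (27.1%, 18.5 to 37.1%), against 12.1% of all promoters. The sequences of the other peaks were not used here, and a window without these letters says nothing of binding there.

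Borders of long noncoding RNA genes lay near fewer of the shared peaks than of the peaks at 1 gene. The share over such places without a peak was not counted. Whether the difference belongs to the peaks or to the annotation was therefore not tested. A border of one lay within 1 kb of 32 shared peaks (2.94%, interval 2.02 to 4.13%), against 879 of 6156 peaks at the borders of exactly 1 protein-coding gene (14.3%, 13.4 to 15.2%). Among chromosomes, shared peaks made up between 5.71% of the peaks, on chromosome 18, and 13.3%, on chromosome 17. On the X chromosome they were 20 of 310 peaks (6.45%, 3.99 to 9.79%).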

How the data were processed

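FOXL2 ChIP-seq was measured in 2 samples, with 2 inputs. Groups and replicate numbers came from the titles. The authors' deposited values are the positions (score-free, in bp) of 1 peak list. Per the submitters' processing notes, Bowtie 1.2, Picard 1.110, bedtools 2.24.0, HOMER 4.9 and build mm10 were used. Neither the labels nor the notes say which tool did what, which peak threshold applied or how replicates were combined. The peak centre was the midpoint of the deposited start and end. Gene borders came from RefSeq GRCm38.p6. Strand came from the matching promoter table, for 17273 of 21627 genes, and chromosome 18 promoters were not used here. bp between borders excludes both border bases. Shares have exact Clopper-Pearson intervals and densities exact Poisson intervals at 95% (Python 3.11.15, pandas 2.3.3, scipy 1.17.1). The functions were tested on simulated peaks. Members, gene lists and motifs were chosen with earlier results of these data known. Named genes followed a fixed rule: all listed pairs, up to 6 genes per list by summed distance, and the extremes of gene number, midpoint, spacing, limit and peak number. Genes outside it are marked as chosen after their values were seen. A few genes that the rule names are not reported here, though they are in the counts. The peak threshold sets how many pairs appear occupied, so a pair without a peak may hold binding below it.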

Additional observations from a re-analysis of the deposited data

How the results depend on the processing

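Of 57 values recomputed under alternative settings, 37 stayed within the 95% interval of the value reported or, for the number of shared peaks, within 1.5 times. The occupied shares of start-start and of end-end pairs, and the count from listed starts, were added after the data were seen. With a distance of 500 bp the median spacing was 97.0 bp, start-start members 91.3%, and occupied pairs 57.1% of start-start and 0.13% of end-end ones. With 2 kb the spacing was 230 bp, start-start members 73.7%, occupied pairs 20.7% and occupied end-end pairs 2.71%. Counting from the peak edge gave 23.1% occupied pairs. With genes of all kinds there were 2141 shared peaks, a spacing of 180 bp, 27.6% of centres between the borders, 88.0% start-start members, and 17.8% of all and 51.9% of start-start pairs occupied. Without overlapping or nested genes there were 676 shared peaks, a spacing of 116 bp, 10.7% of centres between the borders and 79.1% start-start members, by construction from fewer members. Listed starts in place of gene borders gave 674 shared peaks, from fewer genes and without ends. Leaving out predicted models or the X chromosome, or merging peaks within 500 bp, moved no value beyond its interval. Merging left 11419 of 11434 peaks, so it could change little. The occupied share of start-start pairs exceeded that of end-end pairs in all 8 settings in which both were computed. No paired analysis was possible because both ChIP samples are in 1 list without values per replicate, and for the same reason no replicate could be left out. Depth is unknown.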
